A study of Mus musculus with 6 samples.

Results

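Tigit and Cd96 encode 2 cell-surface receptors of T cells and natural killer (NK) cells that bind ligands of the nectin family. They were taken by symbol from a deposited table of 750 genes measured in CD4 T cells of mouse liver, and both were present and passed the filter on low values. The pair was chosen by its log2 difference between the groups, which stood higher in FFC for both genes in earlier work on the same values, so their own levels and differences are given here as a description, with no test. RNA was counted on the nCounter platform, which hybridises a barcoded probe to each RNA and counts the barcodes without amplification. The tested samples were 3 libraries labelled FFC and described as MASH, and they were compared with 3 libraries labelled Chow and described as control. In this field MASH usually stands for metabolic dysfunction-associated steatohepatitis and FFC for a diet rich in fat, fructose and cholesterol, but neither is spelled out in the labels. The series calls the 3 libraries of each group biological replicates. The sources used here give no strain, sex, age, length of diet or way of isolating the cells.

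TIGIT is a co-inhibitory receptor of activated, regulatory and memory T cells and of NK cells, with an inhibitory motif in its cytoplasmic tail. CD96, also called Tactile, is a related immunoglobulin-superfamily receptor of T and NK cells whose role has been described as inhibitory in some settings and costimulatory in others. Both bind PVR (CD155), a nectin-like protein of antigen-presenting, endothelial and many other cells, and both share that ligand with the activating receptor CD226. Of 11 genes listed for this receptor and ligand family, Tigit, Cd96 and the ligand gene Pvr were measured. Cd226 and the other genes of the list were not analysed here.

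Both genes lie on mouse chromosome 16, on the minus strand in the RefSeq annotation of GRCm38.p6. The 250 bases before the start site that RefSeq's promoter table gives for each gene are shown as a description. That the 2 genes were higher together was fixed by the choice of the pair, and shared control was not tested. The Cd96 window adjoins the end of the gene record, while the Tigit record (43626137 to 43665125) reaches 941 bases farther upstream than the start used, so that the Tigit window lies inside the annotated gene. Which start these cells use was not measured. The capitals mark the only match in each window to TGTGGT, a core sequence of RUNX factors, which regulate many T cell genes. Both matches read ACCACA, the reverse complement.
Tigit, chr16:43664185-43664434, minus strand: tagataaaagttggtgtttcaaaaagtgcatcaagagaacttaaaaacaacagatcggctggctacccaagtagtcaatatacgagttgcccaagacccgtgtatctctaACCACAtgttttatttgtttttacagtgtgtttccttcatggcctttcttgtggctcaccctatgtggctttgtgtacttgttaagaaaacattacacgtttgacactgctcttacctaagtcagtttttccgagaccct
Cd96, chr16:46120249-46120498, minus strand: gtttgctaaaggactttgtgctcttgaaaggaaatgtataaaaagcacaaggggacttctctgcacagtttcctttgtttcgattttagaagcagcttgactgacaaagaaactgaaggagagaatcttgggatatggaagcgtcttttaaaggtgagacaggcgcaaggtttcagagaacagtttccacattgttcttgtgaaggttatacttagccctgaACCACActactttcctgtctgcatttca
The match began 140 bases before the start used in Tigit and 28 bases before it in Cd96. Of 32851 RefSeq windows of the same length, 14% held this motif on either strand. The NFAT core GGAAA was found at 2 places in the Tigit window and 4 in the Cd96 window, and 55.6% of all windows held it. The TATA box letters TATAAA, which 12.4% of all windows held, were found once for Cd96 and not for Tigit. The Cd96 window also held 1 match each to the STAT pattern TTCNNNGAA (7.02% of windows) and the TCF pattern CTTTGNT (16%), while neither window matched the AP-1 pattern TGANTCA or the ETS pattern GGAAGT. Both strands were searched for each motif, and matches of different motifs could overlap. A match of letters is not a measured binding site.

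The deposited values are log2 of a whole-number count times 1 scale factor per library. The factors were 1.11 to 1.26 in FFC and 0.707 to 1.10 in Chow libraries, so that every FFC factor lay above every Chow factor. Recovered counts summed to between 623212 and 693640 in FFC and between 726836 and 900322 in Chow. The 8 measured T cell markers, Cd3d, Cd3e, Cd3g, Cd4, Cd5, Cd6, Cd28 and Zap70, had 657 counts or more in every library. T cell RNA was thus seen in all 6, and of the 8 markers only Cd4 bears on the CD4 label. FFC 3 and Chow 3 lay nearest to each other across the groups on the first principal component, which held 67.2% of the variance (2.35 and -1.36). In the limma fit 137 of the 748 genes that entered it (18.3%) had a Benjamini-Hochberg adjusted p under 0.05, 130 higher in FFC (17.4%) and 7 lower (0.936%). The median gene was 0.43 (log2) higher in FFC.

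Tigit had log2 values of 10.62, 10.80 and 9.82 in FFC libraries 1 to 3, against 8.92, 8.76 and 8.90 in Chow libraries 1 to 3. The lowest FFC library, FFC 3, lay above all Chow libraries, and the 3 Chow libraries lay close together while the FFC libraries were spread. Its means were 10.41 ± 0.52 in FFC and 8.86 ± 0.090 in Chow (SD, n = 3 each), a difference of 1.55 ± 0.29 (SE; 95% interval 0.90 to 2.21) or 2.93-fold. With 1 library left out the difference was 1.36 (without FFC 2) to 1.85 (without FFC 3). Cell numbers are not given, so more Tigit-bearing cells and more Tigit RNA per cell cannot be told apart in these bulk samples.

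In recovered counts, before any scale factor, Tigit stood at 1339, 1408 and 811 in FFC libraries and at 628, 612 and 434 in Chow libraries. The groups stayed apart on this scale too, and the exact Poisson 95% interval of the lowest FFC count (756.1 to 868.8) did not meet that of the highest Chow count (579.8 to 679.1). These intervals cover counting error only. Tigit was chosen by its difference, so the separation in counts is a description. The difference in unscaled counts was 1.07 (log2), or 2.09-fold, and centring each library on its own median gave 1.17. Quantile normalization gave 1.25 and cyclic loess 1.36, so that the size of the Tigit difference depended on the scaling and its direction did not under the scalings tried.

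Cd96 had log2 values of 7.11, 7.46 and 6.62 in FFC libraries, against 5.18, 5.45 and 5.92 in Chow libraries. The lowest FFC library was again FFC 3, the highest Chow library was Chow 3, and the groups did not overlap. The means were 7.06 ± 0.42 in FFC and 5.52 ± 0.37 in Chow (SD, n = 3 each), a difference of 1.54 ± 0.30 in the deposited values (SE; 95% interval 0.86 to 2.22), which was 0.75 under quantile normalization and 0.73 under cyclic loess. No fold is given, since the counts of Cd96 were not separated from those of genes of other organs, as described next. Non-overlap with FFC higher was found for 257 of the 748 tested genes (34.4%) and for both receptors; the choice of the pair fixed this, and nothing is read from it.

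**Figure D1:**
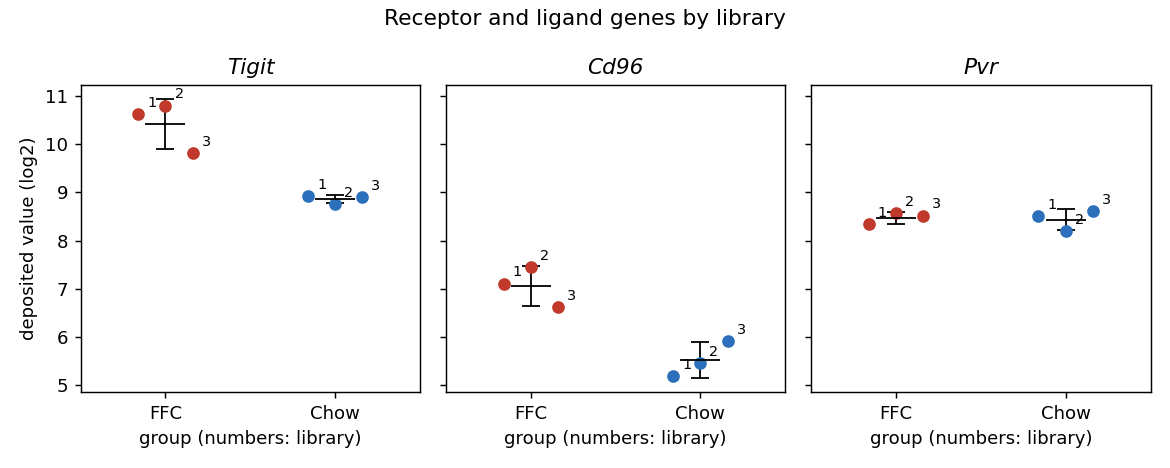
Deposited log2 values (y axis) of Tigit, Cd96 and Pvr in FFC and Chow libraries; points are libraries, numbered as in the labels, and bars are the mean and SD (n = 3 each). The FFC libraries of Tigit (9.82 to 10.80) and Cd96 (6.62 to 7.46) lie above all Chow libraries, while those of Pvr (8.33 to 8.57) lie within the Chow range.

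The counts behind the 2 genes differed widely. Cd96 had 117, 139 and 88 counts in FFC libraries and 47, 62 and 55 in Chow libraries. For comparison 6 genes whose main site is another organ, namely Ins2 of the pancreas, Tg of the thyroid, Pomc of the pituitary, Aqp4 and Bdnf of the brain and Bmp8a of the testis, averaged 119.7, 134.8 and 106.0 counts in FFC and 87.7, 80.5 and 91.0 in Chow. Cd96 thus stood at 0.98, 1.03 and 0.83 times that average in FFC and at 0.54, 0.77 and 0.60 times in Chow. It was under the mean plus 2 SD of the 6 genes in all 6 libraries, so that its signal was not separated from that of genes of other organs. The exact Poisson interval of its lowest FFC count (70.6 to 108.4) met that of its highest Chow count (47.5 to 79.5).

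Tigit, by contrast, exceeded each of the 6 genes in every library, at 11.2, 10.4 and 7.65 times their average in FFC and 7.16, 7.60 and 4.77 times in Chow. With that average subtracted from each count before scaling, Tigit was 3.13-fold higher in FFC. The same subtraction left Cd96 below 0 in FFC 1, FFC 3 and the 3 Chow libraries.

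**Figure D2:**
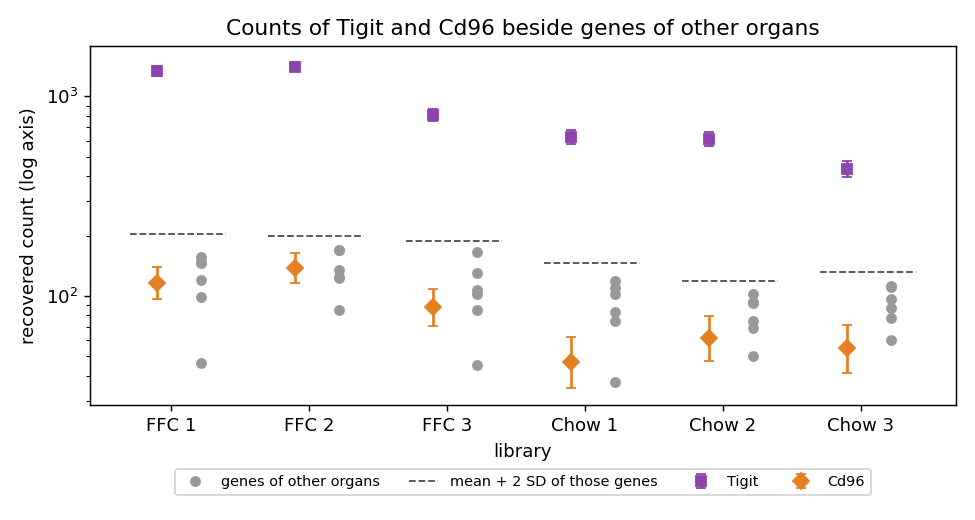
Recovered counts on a log axis for Tigit (squares) and Cd96 (diamonds) with exact Poisson 95% intervals, beside 6 genes of other organs (grey points) and the mean plus 2 SD of those genes (dashed) in each library. Tigit lies above the dashed line in all 6 libraries, and Cd96 lies under it in all 6, among the grey points.

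The genes of other organs were themselves higher in FFC. Of the 6 genes Tg, Aqp4 and Bmp8a passed as higher in limma and none as lower, where 17.4% of all genes were called higher (5 and 0 of the 6 at an unadjusted p under 0.05, and 5 and 0 with voom), with differences of 0.71 to 1.05 and a median of 0.97 over the 6, where the median tested gene stood at 0.43. None of the 3 passed once quantile normalization (adjusted p = 0.23 to 0.29) or cyclic loess was used, nor without any 1 of FFC 1, FFC 2, Chow 1 and Chow 2. Relative to their mean log2 value in the same library, Cd96 stood at 0.075, 0.082 and -0.16 in FFC and at -0.81, -0.34 and -0.69 in Chow, a difference of 0.61. The groups did not overlap on this measure, with FFC 3 and Chow 2 the nearest pair. Tigit relative to the same genes stood at 3.59, 3.42 and 3.04 in FFC and at 2.93, 2.97 and 2.29 in Chow, a difference of 0.62. Here too the groups did not overlap, but FFC 3 lay close to Chow 1 and Chow 2. The part of the low-count shift in the Cd96 difference was not tested.

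Differences were set beside those of genes with a similar mean count, within 1.5 times of the member's own. Of 142 such genes around Tigit, 4 had a larger difference than Tigit, and their median was 0.16. Of 105 such genes around Cd96 none had a larger difference. The largest of them was 1.52 and their median 0.85. In limma 38 of these 105 genes and 9 of the 142 around Tigit passed as higher in FFC, where 17.4% of all genes did. Among all 748 genes 24 differed more than Tigit and 25 more than Cd96. The pair was chosen by this difference, so its places among these genes are a description and nothing is read from them.

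**Figure D3:**
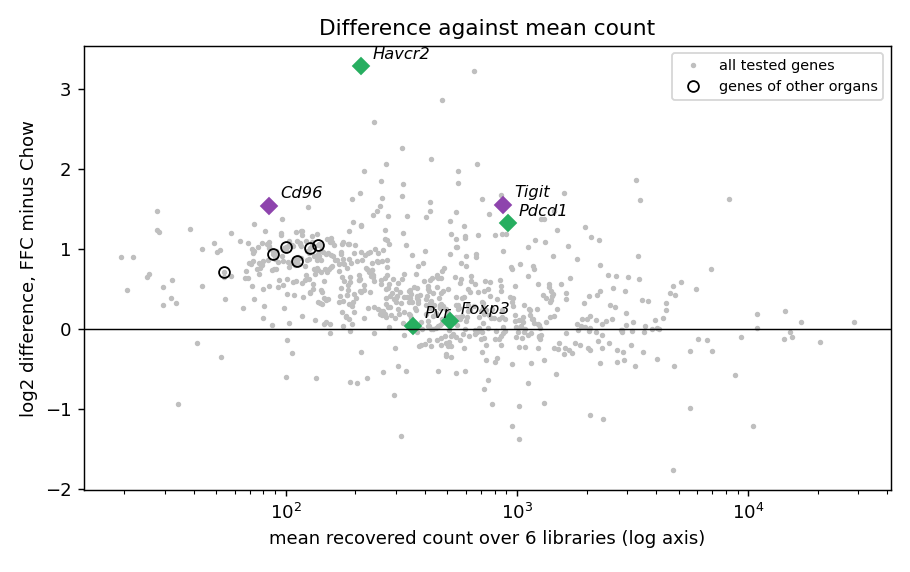
Log2 difference, FFC minus Chow (y axis), against the mean recovered count over 6 libraries (log axis) for the 748 tested genes, with Tigit, Cd96 and 4 other genes as diamonds and 6 genes of other organs as open circles. Cd96 (1.54) sits at low counts, where the genes around it have a median difference of 0.85, and Tigit (1.55) at counts where that median is 0.16.

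A ratio of 2 genes within a library does not contain the scale factor. A ratio of Tigit or Cd96 to a gene outside the pair still holds the difference by which the pair was chosen. The log2 ratio of Tigit to Cd96 was 3.52, 3.34 and 3.20 in FFC libraries and 3.74, 3.30 and 2.98 in Chow libraries. The groups overlapped, with means of 3.35 ± 0.16 in FFC and 3.34 ± 0.38 in Chow (SD, n = 3 each), and the difference between the groups in this ratio was 0.013. Quantile normalization and cyclic loess, which rescale low values by another factor than high ones, moved this difference to 0.50 and 0.63, with Tigit the more raised. Since probes differ in efficiency, the ratio says nothing of which gene has more RNA.

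Relative to the mean log2 value of the 8 T cell markers, Tigit stood at -0.41, -0.36 and -1.29 in FFC and at -1.90, -1.90 and -1.74 in Chow. All FFC libraries lay above all Chow libraries, with a difference of 1.16, and FFC 3 was nearest to Chow. Cd96 on the same measure stood at -3.93, -3.70 and -4.50 in FFC and at -5.64, -5.20 and -4.72 in Chow, a difference of 1.15 with no overlap. Set against Cd4 alone, the coreceptor by which these cells are named, Tigit stood at 0.24, 0.12 and -0.84 in FFC and at -1.01, -0.78 and -0.97 in Chow. The groups overlapped there. Cd96 relative to Cd4 stood at -3.28, -3.22 and -4.05 in FFC and at -4.75, -4.08 and -3.96 in Chow, a difference of 0.75, and these groups overlapped too. Cd4 itself was 0.79 higher in FFC (limma adjusted p = 0.044) and 0.40 higher after centring (adjusted p = 0.20). Without 1 of FFC 1, FFC 2, Chow 1 and Chow 2 it was 0.67 to 0.89 higher, at a limma adjusted p of 0.12 to 0.19. FFC 3 had the highest Cd4 count of the 6 libraries (1454).

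**Figure D4:**
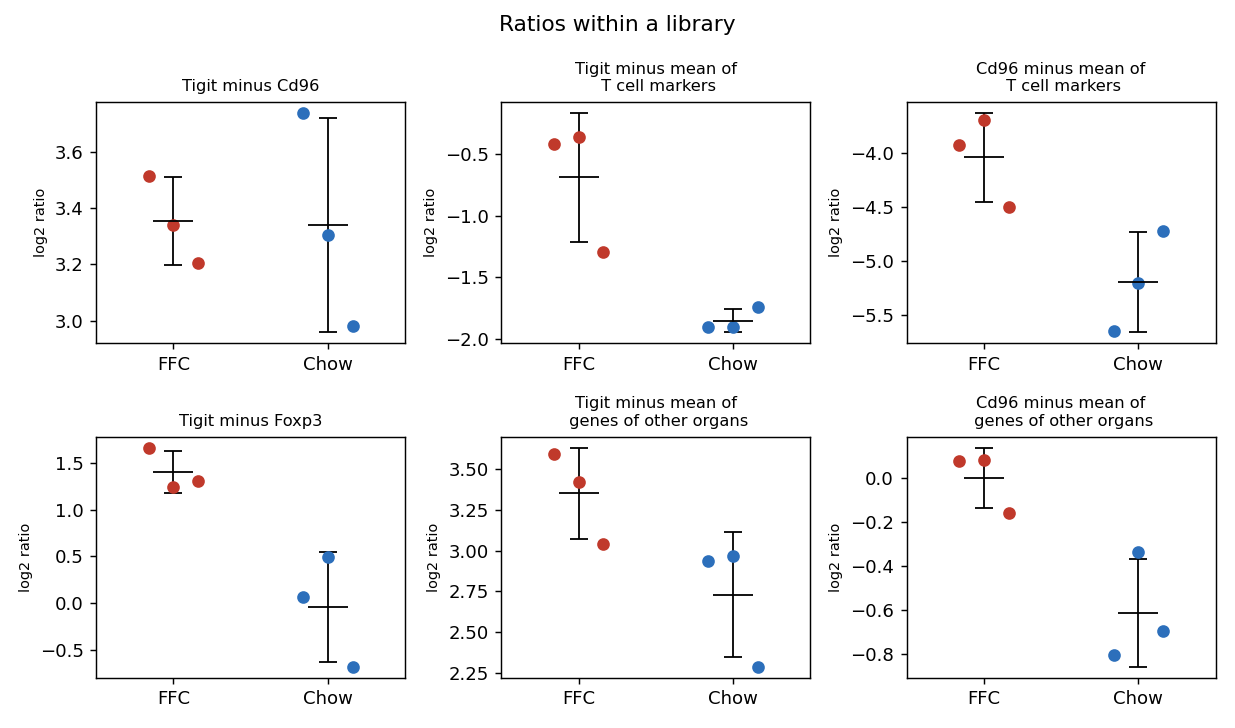
Log2 ratios within a library (y axes, each panel with its own range) of Tigit and Cd96 to each other, to the mean of 8 T cell markers, to Foxp3 and to the mean of 6 genes of other organs; points are libraries and bars the mean and SD (n = 3 each). The Tigit to Cd96 ratio overlaps between FFC and Chow, while both genes lie higher in FFC relative to T cell markers (by 1.16 and 1.15).

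Pvr, the shared ligand gene, did not follow its receptors. It had 274, 300 and 329 counts in FFC libraries and 468, 414 and 354 in Chow libraries, above each of the genes of other organs in all 6. On the deposited scale it averaged 8.47 ± 0.12 in FFC and 8.43 ± 0.21 in Chow (SD, n = 3 each), a difference of 0.039 (95% interval -0.46 to 0.53; limma adjusted p = 0.92). The sign turned under the other scalings, to -0.35 after centring (adjusted p = 0.20), -0.40 under quantile normalization (adjusted p = 0.26) and -0.45 in unscaled counts (adjusted p = 0.10), and passed the threshold under none of them. The log2 ratio of Tigit to Pvr was 2.29, 2.23 and 1.30 in FFC and 0.42, 0.56 and 0.29 in Chow. That ratio rests on Tigit, and Pvr in a preparation of T cells need not reflect the ligand on other liver cells, which were not measured.

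TIGIT belongs to a set of inhibitory receptors that T cells acquire on activation. Of 10 other inhibitory receptors and their ligands tested, 4 rose in FFC and none fell (5 and 0 at an unadjusted p under 0.05, and 5 and 0 with voom), with a median difference of 0.81, against 0.43 over all genes and 17.4% of them called higher. The 4 were Havcr2 (TIM-3) at 3.28, Lilrb4a, an inhibitory receptor of myeloid and activated T cells, at 1.61, Pdcd1lg2, a ligand of PD-1, at 0.99, and Cd244, a receptor of the SLAM family, at 0.94 (limma adjusted p = 0.00065, 0.020, 0.036 and 0.039). Under quantile normalization Havcr2 and Lilrb4a alone of these passed. Pdcd1, the gene of PD-1, had 1198, 1805 and 607 counts in FFC and 642, 685 and 530 in Chow, a difference of 1.32 ± 0.41 (SE; adjusted p = 0.055) and of 1.79 without FFC 3 (adjusted p = 0.0074). It shared with Tigit a low FFC 3, and the Tigit to Pdcd1 ratio overlapped between the groups (0.16, -0.36 and 0.42 in FFC; -0.032, -0.16 and -0.29 in Chow). In the fit without FFC 3, 229 of the 748 genes were called higher.

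The other checkpoint genes named here did not pass with all 6 libraries. Ctla4, a receptor that competes with CD28 for its ligands, differed by 0.67 (limma adjusted p = 0.18), by 1.05 without FFC 3 (adjusted p = 0.019) and by 0.41 without FFC 1 (adjusted p = 0.50). Without FFC 3 the median gene differed by 0.55, and 229 of the 748 genes were called higher. Lag3, an inhibitory receptor for class II molecules, differed by 0.66 (limma adjusted p = 0.23; 0.39 without Chow 3, adjusted p = 0.43) and Btla, an inhibitory receptor for HVEM, by 0.033 (adjusted p = 0.95). The Tigit to Ctla4 ratio was higher in every FFC library than in every Chow library, at log2 ratios of -1.45, -0.99 and -0.97 in FFC and -1.81, -2.29 and -1.94 in Chow. Relative to Havcr2, Tigit was lower, at 1.96, 1.94 and 1.01 in FFC and 3.68, 3.50 and 2.93 in Chow, with no overlap. Both ratios hold the difference by which Tigit was chosen, and nothing is read from them. FFC 3 was the lowest FFC library for Tigit, Cd96 and Pdcd1 and the highest in count for Havcr2 (403).

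Among costimulatory receptors and ligands, 2 of 6 rose and none fell (also 2 and 0 at an unadjusted p under 0.05 and with voom), with a median of 0.39, against 17.4% called higher and a median of 0.43 over all genes. They were Cd40lg, by which helper T cells activate B cells, at 1.44 (limma adjusted p = 0.030; 1.05 after centring, adjusted p = 0.067), and Tnfrsf9 (4-1BB), induced on activation, at 1.12 (adjusted p = 0.024; 0.73 after centring, adjusted p = 0.021). Cd28, the main costimulatory receptor, differed by 0.17 (adjusted p = 0.63), Icos, its relative on activated T cells, by 0.45 (adjusted p = 0.28) and Cd27, a receptor of naive and memory cells, by 0.071 (adjusted p = 0.92). After centring Cd28 and Cd27 were below 0.

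**Figure D5:**
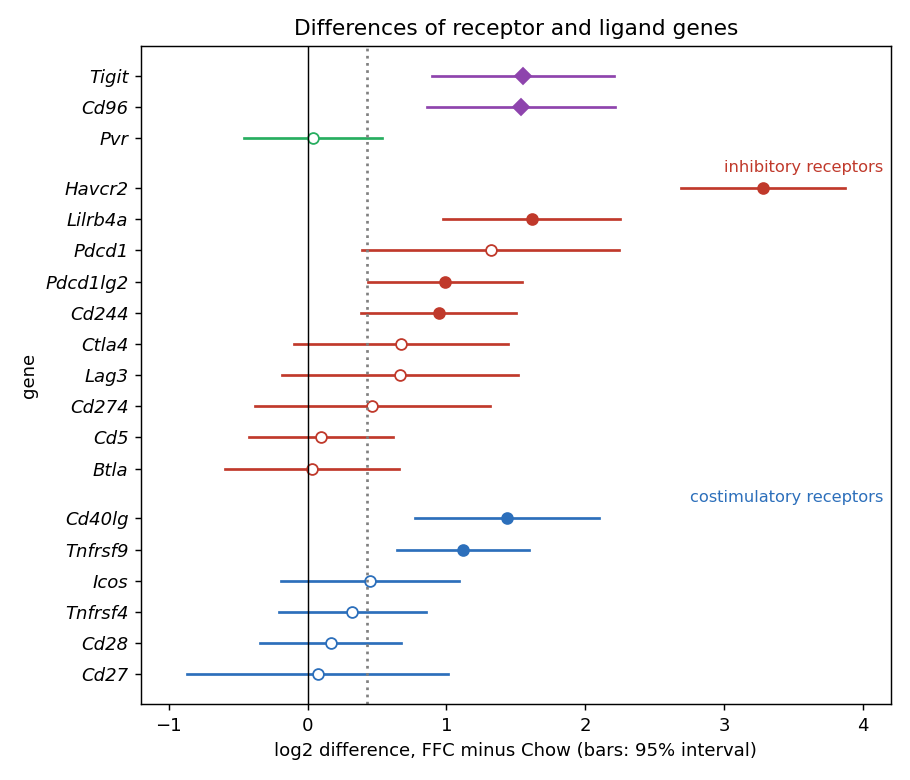
Log2 differences, FFC minus Chow, with 95% intervals, for Tigit and Cd96 (diamonds, not tested), Pvr, 10 inhibitory and 6 costimulatory receptors or ligands; filled circles passed a limma adjusted p of 0.05, open circles did not, and the dotted line is the median of all genes (0.43). Tigit (1.55) and Cd96 (1.54) lie near Lilrb4a (1.61) and Cd40lg (1.44), below Havcr2 (3.28), and Pvr lies at 0.039.

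Signalling partners and regulators of T cell differentiation were also examined. Of 13 tested genes 2 rose and none fell (5 and 0 at an unadjusted p under 0.05, and 3 and 0 with voom), with a median of 0.37. Both the share and the median were below those of all genes (17.4% and 0.43). They were Maf, a transcription factor of several helper and regulatory subsets, at 1.12 (limma adjusted p = 0.036), and Prdm1, encoding Blimp-1, a regulator of terminal differentiation, at 0.83 (adjusted p = 0.043). Neither passed under quantile normalization (adjusted p = 0.15 for Maf and 0.35 for Prdm1). Ptpn6, encoding SHP-1, a phosphatase recruited by inhibitory receptors, was among the 11 that did not pass, at -0.078 (adjusted p = 0.84). Without one of FFC 1, FFC 2, Chow 1 or Chow 2 none of the receptors, ligands and regulators named here as risen passed except Havcr2, which passed without any 1 library.

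Regulatory T cells are a subset in which TIGIT is often high. Foxp3, which defines them, had 421, 592 and 327 counts in FFC and 601, 436 and 697 in Chow. On the deposited scale it differed by 0.099 (limma adjusted p = 0.89; -0.29 after centring, adjusted p = 0.45), and the groups overlapped. The log2 ratio of Tigit to Foxp3 was 1.67, 1.25 and 1.31 in FFC and 0.063, 0.49 and -0.68 in Chow. It was higher in every FFC library than in every Chow library. That ratio rests on Tigit, which was chosen by its difference, and nothing is read from it on regulatory T cells. None of the 4 tested regulatory T cell markers, Foxp3, Il2ra, Ctla4 and Il10, passed in either direction in limma with all 6 libraries or with voom, and 1 of the 4 had an unadjusted p under 0.05. Without FFC 3 Ctla4 (1.05) and Il10 (1.28) passed as higher, at a limma adjusted p of 0.019 for both. In that fit 229 of the 748 genes were called higher, and the median gene differed by 0.55. Without Chow 3 and FFC 3 Foxp3 passed as well (0.69, limma adjusted p = 0.042), while Il2ra passed under no alternative. There 460 of the 748 genes were called higher, and the median gene also differed by 0.69, so nothing is read from the Foxp3 call.

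NK cells and CD8 T cells also carry both receptors, and their markers were measured beside them. The 5 NK markers summed to 635 to 1203 counts in FFC and 469 to 588 in Chow, and 2 of the 5 passed as higher and none as lower, where 17.4% of all genes were called higher (4 and 0 of the 5 at an unadjusted p under 0.05, and 4 and 0 with voom). The 2 were Klrd1 at 1.85, which activated T cells can also carry, and Ncr1 at 1.08 (limma adjusted p = 0.030 for both; 0.062 for Klrd1 and 0.29 for Ncr1 under quantile normalization). Neither passed without any 1 of FFC 1, FFC 2, Chow 1 and Chow 2 (adjusted p = 0.068 to 0.12). Ncr1, the most specific of them, had 93, 81 and 73 counts in FFC and 54, 61 and 49 in Chow, below the average of the genes of other organs in every library, and Klrb1 had 25 to 37 counts. Neither of the 2 CD8 markers passed in limma, while 1 had an unadjusted p under 0.05 and 1 passed with voom; Cd8a had 304, 342 and 272 counts in FFC and 383, 337 and 231 in Chow (0.46, adjusted p = 0.18; -0.025 in unscaled counts). No marker of these lists was at 0 in any library.

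Markers of other cells moved as well. The 5 macrophage and monocyte markers summed to 1713 to 3620 counts in FFC and 1120 to 1615 in Chow, and C1qa, C1qb and Fcgr1 of the 5 passed as higher in limma, at an unadjusted p under 0.05 and with voom, where 17.4% of all genes were called higher in limma. C1qa, a complement gene of macrophages, differed by 2.26 (limma adjusted p = 0.027). Without any 1 of FFC 1, FFC 2, Chow 1 and Chow 2 none of the 3 passed (adjusted p = 0.068 to 0.12). FFC 2, FFC 1 and FFC 3, in that order, had the highest summed scaled level of the macrophage markers, and the same order held for Tigit, for Cd96 and for the genes of other organs. The scale factors had that order as well (1.26, 1.18 and 1.11), as did the summed scaled levels of the NK and CD8 markers. Those of the T cell and B cell markers did not. The 4 B cell markers used, Cd79a, Ms4a1, Cd22 and Pax5, summed to 586 to 846 counts in FFC and 916 to 1419 in Chow. On the deposited scale their sums overlapped, at 653 to 996 in FFC and 709 to 1366 in Chow. There 3 of the 4 differences were above 0, with a median of 0.18. None of the 4 passed in limma or with voom or had an unadjusted p under 0.05. The part of these cells in the levels of Tigit and Cd96 was not tested.

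The genes with the profile most like that of each receptor were found by the root mean square difference of log2 values over the 6 libraries, after the mean of each gene was subtracted. Nearest to Tigit were Siglec1, a macrophage lectin gene (0.13), Ccl19, a ligand of CCR7 (0.18), Cxcr6, a homing receptor of liver lymphocytes (0.18), Ifitm1, an antiviral membrane protein gene (0.22), and Maf (0.23). Cd96 came next at 0.24, the sixth of all genes, against a median distance of 0.66. Both members were chosen by their group difference, which enters this distance, so nothing is read from their nearness. Pdcd1 was eleventh at 0.27, while Foxp3 (0.81), Pvr (0.83) and Havcr2 (0.95) were farther than the median.

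Nearest to Cd96 were Itgam, an integrin gene of myeloid cells (0.16), Ccl19 (0.17), Fpr1, a chemoattractant receptor of neutrophils and monocytes (0.18), Tlr5, a flagellin receptor (0.18), and Mpo, a granule enzyme gene of neutrophils (0.18). Tigit was only the 24th nearest to Cd96. Ccl19 was thus the gene on both short lists. Siglec1 and Tlr5 were, like Cd96, under the floor of mean plus 2 SD set by those 6 organ genes in all 6 libraries. Of the 5 genes nearest to Cd96, Tlr5 had a mean of 81.2 counts, close to the 84.7 of Cd96 itself, and Itgam and Mpo had 193.3 and 188.0. Distances over 6 libraries in 2 groups reflect mainly the group difference and the scale factors that all genes share, and they are given as a description.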

How the data were processed

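The deposited table held log2 values of 750 genes in 6 nCounter libraries; how the authors normalized them is not stated. Taken out of log2, all values of a library were whole multiples of its own smallest unit (within 0.02 of a whole number), and counts were recovered from these multiples. Groups came from the sample titles. Genes with a linear mean of at least 20 were tested, 748 of 750, with limma 3.58.1 in R 4.3.3 (lmFit, eBayes, no covariate, two-sided, Benjamini-Hochberg adjustment over all genes tested), after the fit was tested on simulated data. Tigit and Cd96 were given as values without a test. Members, gene lists, the 6 genes of other organs and the motifs were chosen with earlier results of these data known. Named genes followed a written rule: the receptor and ligand family, a set of checkpoint and costimulatory genes, list members past the threshold, 7 markers and the 5 nearest profiles of each member. Ptpn6, Klrd1, Il2ra, Il10, C1qb, Fcgr1, 4 B cell markers and the genes of other organs are named outside it, picked with their values in view. Promoter windows came from RefSeq (GRCm38.p6), in which both members matched by symbol; the table names no genome build. Precision was limited by 3 libraries a group. Probe sequences were not used here, and some genes are not reported here. Alternatives were pseudocounts, filters, scalings, voom, a background floor, a replicate block, libraries left out, trend and robust eBayes and, added after the data were seen, unscaled counts.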

Additional observations from a re-analysis of the deposited data

How the results depend on the processing

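Tigit and Cd96 were higher in FFC under all 19 alternatives, with log2 differences of 1.07 to 1.87 and 0.73 to 1.96. The pair was chosen by this difference, so its direction under these settings is a description and nothing is read from it. Tigit moved by more than the spread between replicates after centring (1.17) and in unscaled counts (1.07), and Cd96 under quantile normalization (0.75), cyclic loess (0.73), a background floor (1.06), in unscaled counts (1.05) and without Chow 3 and FFC 3 (1.96). The difference in the Tigit to Cd96 ratio was 0.50 under quantile normalization, 0.63 under cyclic loess and 0.49 with the floor, which raises Cd96 to the floor in all 6 libraries, so that its value there is that of the floor. Over all genes 137 calls became 53 under quantile normalization, 62 under cyclic loess, 216 with voom, 295 with the floor, 475 without Chow 3 and FFC 3, and 1 to 290 with 1 library left out (1 without FFC 1, 1 without FFC 2, 234 without FFC 3, 7 without Chow 1, 2 without Chow 2 and 290 without Chow 3). The share of higher calls also moved with scaling, to 108 higher and 36 lower after centring, 30 and 23 under quantile normalization, 35 and 27 under cyclic loess and 46 and 55 in unscaled counts. With the replicate number as a block 1 gene passed, Havcr2. The labels do not say that the numbers pair samples. Deviations of same-numbered libraries from their group means correlated at r = 0.019, -0.22 and -0.043 for numbers 1 to 3. Pairs of unlike number ranged from -0.29 to 0.33, so these values cannot decide whether the numbers pair the samples. Inhibitory receptors and ligands called higher numbered 1 to 8, costimulatory ones 0 to 2 and partners 0 to 7 over the alternatives, and none was called lower.

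Genes that did not pass turned their sign under some settings. After centring Btla stood at -0.35, Cd27 at -0.31, Cd28 at -0.22, Cd3e at -0.063, Foxp3 at -0.29, Il2ra at -0.16 and Pvr at -0.35. Under quantile normalization Btla stood at -0.30, Cd27 at -0.30, Cd28 at -0.068, Cd8a at -0.032, Foxp3 at -0.24, Klrb1 at -0.13 and Pvr at -0.40. Under cyclic loess Btla stood at -0.27, Cd27 at -0.23, Foxp3 at -0.16, Klrb1 at -0.26 and Pvr at -0.35. With voom Btla stood at -0.17, Cd27 at -0.13, Cd28 at -0.030, Foxp3 at -0.11 and Pvr at -0.16. In unscaled counts Btla stood at -0.45, Cd27 at -0.42, Cd28 at -0.32, Cd3e at -0.16, Cd8a at -0.025, Foxp3 at -0.39, Icos at -0.037, Il2ra at -0.26 and Pvr at -0.45. Without Chow 3 and FFC 3 Cd28 stood at -0.00053 and Il2ra at -0.21. With 1 library left out Btla ranged from -0.13 to 0.28, Cd27 from -0.23 to 0.57, Foxp3 from -0.22 to 0.44, Il2ra from -0.077 to 0.46 and Pvr from -0.081 to 0.13. The cause of these changes was not tested. Counts limit Cd96, Ncr1, Klrb1, Siglec1, Tlr5 and Cd79a, which were under the floor set by the 6 organ genes in all 6 libraries; Cd244 and Pax5 were above it in 2, Havcr2 in 3, Ccl19, Itgam and Cd22 in 4, and C1qa, Klrd1, Fpr1 and Mpo in 5. Klrb1 has no value with a linear mean of at least 50, since it did not reach it.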
